A study of Mus musculus with 5 samples.

Results

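Protocadherins are cell-surface proteins of the cadherin superfamily. They were followed in cultured dorsal root ganglion (DRG) neurons, the peripheral sensory neurons whose cell bodies lie beside the spinal cord, and in cerebellar granule neurons (CGNs), the small excitatory neurons of the cerebellar cortex. Every gene whose symbol starts with Pcdh in the table of isoforms was taken, after the suffix of assembled isoforms (_j and a number) was removed, and the expression of its isoforms was summed. This gave 46 of 15154 genes, with 63 of 50356 isoforms. Of the 46 genes, 36 belong to the alpha (8 genes), beta (17 genes) and gamma (11 genes) clusters and 10 lie outside them. The RefSeq gene table lists 14 alpha, 22 beta and 22 gamma genes, and those without a row of their own were not analysed here.

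The clustered protocadherins are arranged in tandem on mouse chromosome 18. In the alpha and gamma clusters each gene has its own promoter and its own large first exon, which codes for the extracellular part of the protein and is spliced to exons that all genes of the cluster share. Beta genes have no shared exons. Individual neurons use different sets of these promoters, and the proteins bind to identical copies on other membranes, by which a neuron can tell its own branches from those of its neighbours. The C-type genes at the end of the alpha and gamma clusters differ from the rest in that many neurons express them together. Most protocadherins outside the clusters are delta-protocadherins, which act in cell sorting, axon growth and synapse remodelling.

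All cells came from C57bl/6j mice at postnatal day 8 and were grown on poly-d-lysine and laminin, with no genetic change in any group. The 3 DRG libraries were each made from ganglia of 2 mice, kept for 16 days in vitro with nerve growth factor and with fluorodeoxyuridine, an agent that kills dividing cells. The 2 CGN libraries were each made from 1 mouse and kept for 16 hours in vitro, so cell type, time in culture and medium cannot be told apart. The study's methods state that neurons made up most, not all, of the cells in the DRG cultures. Levels are FPKM, fragments per kilobase of exon, which can be compared between genes. The authors scaled them by upper-quartile normalization, which left the summed FPKM of the libraries unequal, from 22444463 in CGN replicate 1 to 62824363 in DRG replicate 1. Read numbers behind single values were not analysed here, so the depth of a value is unknown, and a listed 0 does not show that a gene was silent: of 42 ribosomal protein genes 1, Rps13, had 0 FPKM throughout.

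The identity of the cultures was checked with marker genes. All 8 of 8 tested sensory neuron markers were higher in DRG neurons, and all 7 of 7 tested granule neuron markers were lower. Of the latter Pax6, Barhl1, Atoh1 and Gabra6 were at 0 in every DRG library. So was Cbln3, which was not tested and was also at 0 in CGN replicate 2. Markers of other cells moved too. Of 8 Schwann cell and satellite glia markers 5 were higher and 1 was lower in DRG neurons, with summed FPKM of 83223 to 124419 in DRG libraries and 22528 to 31408 in CGN libraries, and none of the 8 was at 0 throughout either group. Of 9 fibroblast markers 6 were higher (summed FPKM of 45374 to 93547 in DRG libraries and 2703 to 5675 in CGN libraries, with no marker at 0 throughout either group). Of 7 tested macrophage and microglia markers all were lower (376 to 1509 in DRG libraries and 7026 to 10870 in CGN libraries). Cx3cr1 was at 0 in every DRG library, as were Aif1 and Itgam, which were not tested. In CGN replicate 2 Aif1 was at 0 FPKM and Itgam at about 0. Of 8 astrocyte and Bergmann glia markers 2 were higher and 5 lower (3085 to 3899 in DRG libraries and 17833 to 26295 in CGN libraries, with Aqp4 at 0 in every DRG library). Of 7 tested Purkinje cell and interneuron markers 6 were lower (163 to 6290.4 in DRG libraries and 10005 to 18602 in CGN libraries). Gad1, Pvalb and Eomes were at 0 in every DRG library, as was Gad2, which was not tested. Of 4 tested endothelial markers 1 was lower, with sums of 1817 to 2320.2 in DRG libraries and 1572 to 2623 in CGN libraries, and of 8 pan-neuronal markers 3 were higher and 1 was lower. The part of these cells in the protocadherin values was not tested, and in such cultures fewer cells of a type and less RNA per cell cannot be told apart.

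Genes were compared with limma on log2(FPKM + 50), if 2 or more libraries reached 50 FPKM, and a call needed an adjusted p (Benjamini-Hochberg, over all genes tested) under 0.05. Of the 46 protocadherins 42 were tested, and Pcdh11x, Pcdh15, Pcdha3 and Pcdhb11 were not. Pcdh1, Pcdh21, Pcdha9, Pcdhac2, Pcdhb9, Pcdhga1 and Pcdhga2 were higher in DRG neurons, 7 of 42, against a background of 28.4% of the 13275 genes tested. Only Pcdh8 was lower, 1 of 42, against 9.22% of all genes. The median log2 fold change of DRG over CGN was -0.04 over the 42 protocadherins and 0.59 over all genes tested, and for every called protocadherin the fold change relative to that median of all genes is also given. Of the 42 tested genes 13 had every DRG library above both CGN libraries, against 43.5% of all tested genes, and 11 had every DRG library below both, against 16.8%.

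The counts depended on which libraries entered and on how libraries were scaled, as did the counts over all genes given in the last section. Without any 1 of the DRG libraries Pcdh1, Pcdh21 and Pcdha9 were called higher and Pcdh8 lower. Without CGN replicate 1 only Pcdh1 and Pcdh21 were called, and without CGN replicate 2 the 6 genes Pcdh1, Pcdh21, Pcdha9, Pcdhb9, Pcdhga1 and Pcdhga2 were called higher and Pcdh8 was no longer lower. CGN replicate 2 was above CGN replicate 1 for 37 of the 42 tested protocadherins and for 83.7% of all tested genes, with a median ratio of 1.67. Scaling to equal total FPKM called 2 protocadherins higher and 13 lower, median ratio scaling 2 and 11, and quantile normalization 6 and 11. The lower calls were 31.0, 26.2 and 26.2% of the 42 tested, against 26.2, 21.0 and 21.1% of all genes in the same order. The higher calls were 4.76, 4.76 and 14.3%, against 17.3, 21.5 and 22.5% of all genes. Pcdh1 and Pcdh21 were higher and Pcdh8 was lower under all 3 scalings.

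Among the 8 tested genes outside the clusters, Pcdh1 and Pcdh21 were much higher in DRG neurons, 2 of 8 against 28.4% of all genes. Pcdh8 was lower, 1 of 8 against 9.22%, and 5 other tested genes were not called. Every DRG library was above both CGN libraries for 5 of the 8, against 43.5% of all tested genes. For 2 of the 8 every DRG library was below both, against 16.8%. Pcdh1, a delta-protocadherin also known from airway epithelium, lies at chr18:38345911-38371624 (mm9). It had 7244, 5688 and 7548 FPKM in the DRG libraries, against 1097 and 1253 FPKM in the CGN libraries. All DRG libraries were far above both CGN libraries, which differed little between themselves. The log2 fold change was 2.48 ± 0.33 (SE, adjusted p = 0.00051 by limma), or 1.89 above the median of all genes. It was 1.55 to 1.82 under the 3 scalings and was called under every alternative that had a value for it. Only assembled isoforms carried the symbol Pcdh1, so it had no value with reference transcripts alone.

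Pcdh21, listed by RefSeq as Cdhr1, is a photoreceptor cadherin that is needed for outer segment structure in the retina and lies at chr14:37891046-37911403 (mm9). It had 1739, 1482 and 3749 FPKM in the DRG libraries, against 10.1 and 27.0 FPKM in the CGN libraries. DRG replicate 3 was the highest by far, and the lowest DRG library was still far above both CGN libraries, where the gene was under the limit of 50 FPKM. The log2 fold change on the scale with 50 added was 5.00 ± 0.59 (SE, adjusted p = 0.00031 by limma), or 4.41 above the median of all genes. It was 4.55 to 6.92 under all alternatives and was called under each of them. In DRG neurons Pcdh1 and Pcdh21 were the 2 most abundant genes outside the clusters in each library.

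Pcdh8, a delta-protocadherin that drives the removal of N-cadherin from synapses in rat neurons after activity, lies at chr14:80167044-80170969 (mm9). It had 130.8, 0 and 0 FPKM in the DRG libraries, against 397 and 620 FPKM in the CGN libraries. All DRG libraries were below both CGN libraries, and DRG replicate 1 was the only DRG library with a value. The log2 fold change was -2.83 ± 0.72 (SE, adjusted p = 0.013 by limma), or -3.42 relative to the median of all genes. The call was lost without CGN replicate 1 (adjusted p = 0.12) or without CGN replicate 2 (adjusted p = 0.14), each time in a fit by limma that left 1 CGN library, and with a pseudocount of 1 (adjusted p = 0.068).

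Pcdh10 and Pcdh17 bind the WAVE actin regulator and act in axon growth. Pcdh10 had 640, 376 and 638 FPKM in the DRG libraries, against 759 and 1376 FPKM in the CGN libraries. The groups did not overlap, but the log2 fold change of -0.87 ± 0.53 was not called as deposited (SE, adjusted p = 0.22 by limma). It was called lower under all 3 scalings, with log2 fold changes down to -1.77. Pcdh17 had 304, 523 and 744 FPKM in the DRG libraries, against 205 and 281 FPKM in the CGN libraries. All DRG libraries were above both CGN libraries, with a wide spread, and the log2 fold change of 0.91 ± 0.59 was not called (SE, adjusted p = 0.26 by limma).

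Pcdh7, a delta-protocadherin that binds the phosphatase PP1, had 527, 541 and 992 FPKM in the DRG libraries, against 361 and 363 FPKM in the CGN libraries. The groups did not overlap, DRG replicate 3 stood above the other two, and the log2 fold change of 0.78 ± 0.54 was not called (SE, adjusted p = 0.28 by limma). Pcdh19, in which mutations cause epilepsy in humans, had 180.1, 183 and 277 FPKM in the DRG libraries, against 102 and 167 FPKM in the CGN libraries. These groups did not overlap either, and the log2 fold change of 0.51 ± 0.58 was not called (SE, adjusted p = 0.51 by limma) and was below 0 under equal total and median ratio scaling. Pcdh18, which binds the adaptor Dab1 in mouse, had 88.7, 134 and 97.7 FPKM in the DRG libraries, against 97.8 and 157 FPKM in the CGN libraries. Its groups overlapped (log2 fold change -0.17 ± 0.56, SE, adjusted p = 0.84 by limma).

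Pcdh15, a part of the tip links of inner ear hair cells, was listed at 822 FPKM in DRG replicate 3 and at 0 in the other 4 libraries. That value came from 1 assembled isoform at chr10:74089556-74108640 (mm9). Pcdh11x was listed at 0 in all 5 libraries. Neither gene was tested.

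**Figure D1:**
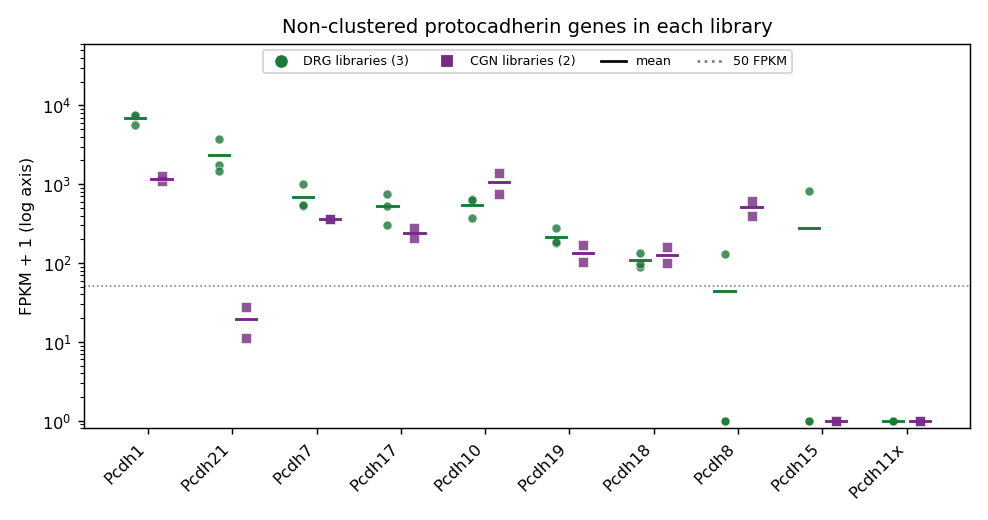
FPKM + 1 on a log axis for the 10 protocadherin genes outside the clusters, with a point for each library (DRG circles on the left, CGN squares on the right), a bar for each group mean and a dotted line at 50 FPKM. The DRG points of Pcdh1 lie between 5688 and 7548 FPKM and those of Pcdh21 between 1482 and 3749 FPKM, above all their CGN points, while 2 of the DRG points of Pcdh8 are at 0.

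The isoforms of these genes were tested on their own. Of the 63 protocadherin isoforms 54 were tested, 3 were higher in DRG neurons, against 9.63% of the 33587 isoforms tested, and 1 was lower, against 5.04%. The higher ones were the isoform of Pcdh21 and 2 of the 3 assembled isoforms of Pcdh1. The isoform Pcdh1_j3 carried most of the Pcdh1 signal, with 5404, 4762 and 5740 FPKM in the DRG libraries and 811 and 947 FPKM in the CGN libraries (log2 fold change 2.53 ± 0.32, SE, adjusted p = 0.0082 by limma). Its call was lost without DRG replicate 1 (adjusted p = 0.059 by limma) or without DRG replicate 3 (adjusted p = 0.051). The isoform Pcdh1_j1 had 1451, 397 and 1427 FPKM in the DRG libraries and 8.05 and 109 FPKM in the CGN libraries. Its DRG values were uneven, and its call (log2 fold change 3.38 ± 0.84, SE, adjusted p = 0.046 by limma) was lost without any 1 library, with adjusted p from 0.057 to 0.24.

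Pcdh8 had 2 reference isoforms, of which 1 was called. The isoform uc007uti.1 was listed at 0 in all 3 DRG libraries, against 377 and 275 FPKM in the CGN libraries (log2 fold change -2.90 ± 0.55, SE, adjusted p = 0.024 by limma). Without any 1 DRG library its adjusted p was 0.074 to 0.084. The other isoform, uc007utj.1, gave the whole value of DRG replicate 1 (130.8 FPKM) and was at 0 in the other DRG libraries, against 20.5 and 345 FPKM in the CGN libraries. Its groups overlapped, and it was not called (log2 fold change -1.12 ± 0.99, SE, adjusted p = 0.49 by limma).

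The clustered protocadherins gave a sum of 28202, 25263 and 27462 FPKM in the DRG libraries and 20732 and 33309 FPKM in the CGN libraries. The ratio of the means, DRG over CGN, was 0.998, and the DRG values lay between the CGN values. The families did not share this ratio. The alpha genes summed to 2532, 2830 and 3496 FPKM in DRG libraries and to 900.1 and 1368 FPKM in CGN libraries, a ratio of 2.60, with no overlap. The beta genes summed to 4751, 4960 and 6207 FPKM in DRG libraries and to 5253 and 7514 FPKM in CGN libraries, a ratio of 0.831, with overlap. The gamma genes summed to 20919, 17473 and 17759 FPKM in DRG libraries and to 14579 and 24428 FPKM in CGN libraries, a ratio of 0.960, with overlap. Outside the clusters the sums were 10853, 8927 and 14869 FPKM in DRG libraries and 3030 and 4245 FPKM in CGN libraries, a ratio of 3.18, with no overlap. Without Pcdh1 and Pcdh21, left out after their values were seen, the sums of the other 8 genes were 1870, 1757 and 3571 FPKM in DRG libraries and 1922 and 2965 FPKM in CGN libraries, a ratio of 0.982, with overlap. All listed isoforms together summed to 62824363, 51860685 and 53804276 FPKM in DRG libraries and to 22444463 and 37275184 FPKM in CGN libraries, also with no overlap. A family ratio near 1 thus lay below the ratio of the whole libraries. The family sums move with the scaling of the libraries, and without CGN replicate 2 the log2 ratio of the beta genes was 0.01 and that of the gamma genes 0.36. The ratio of the alpha genes stayed above 1 under every alternative run for it, and so did that of the genes outside the clusters while Pcdh1 and Pcdh21 were included.

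**Figure D2:**
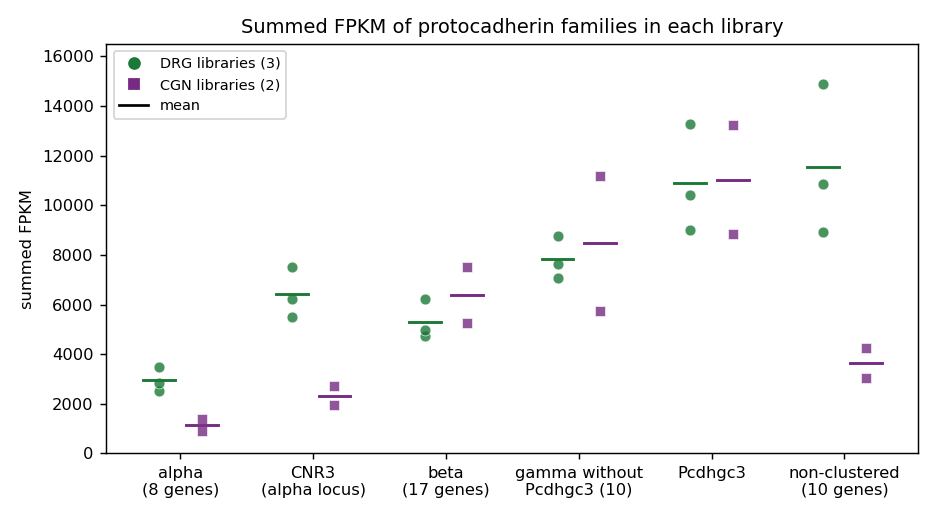
Summed FPKM of each protocadherin family (vertical axis, linear) in each library, with DRG circles to the left of CGN squares and bars for the group means. The alpha sums (2532 to 3496 in DRG libraries, 900.1 to 1368 in CGN libraries) and the CNR3 sums are apart between the groups, whereas the beta, gamma and Pcdhgc3 sums overlap.

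Because the shared exons of a cluster cannot be assigned to a gene by position, alpha and gamma values rest on how the authors' software divided those reads. In the GENCODE annotation of mm9 all 9 alpha transcripts with 3 or more exons start their later exons at the same positions, and 9 of 10 gamma transcripts share the start of the first of these. The lower confidence bound of the FPKM was above 0 in every library for 2 of 8 alpha genes, 13 of 17 beta genes and 7 of 11 gamma genes. Values of single alpha and gamma genes are therefore uncertain. Beta genes share few exact stretches: of the 50-base windows of 21 annotated beta genes, 0 to 12.0% occurred unchanged in another gene, with a median of 3.84%. Only exact matches in protein-coding transcripts were counted, so this cannot show how often reads that align with mismatches were confused between beta genes.

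In the alpha cluster (chr18:37105764-37347319, mm9, given as 1 locus for all its genes) all 7 tested genes had log2 fold changes above 0 as deposited, and 2 were called higher, against 66.3% of all genes above 0 and 28.4% called higher. With equal total FPKM 2 of the 7 were below 0, and with median ratio scaling 1 was. The C-type gene Pcdhac2 had 893, 984 and 1515 FPKM in the DRG libraries, against 304 and 461 FPKM in the CGN libraries. Among the 8 alpha genes, with the CNR3 isoforms described below left out, it was the most abundant in every library except CGN replicate 1. There Pcdha7 was just above Pcdhac2. The log2 fold change of Pcdhac2 was 1.44 ± 0.50 (SE, adjusted p = 0.049 by limma), or 0.85 above the median of all genes. The call was lost without any 1 DRG library (adjusted p from 0.067 to 0.16 by limma) and under all 3 scalings (0.071 to 0.26). Without CGN replicate 1 or 2 the log2 fold change was 1.17 or 1.70.

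Pcdha9 had 319, 385 and 365 FPKM in the DRG libraries, against about 0 and 113 FPKM in the CGN libraries. The DRG libraries were close together and above both CGN libraries. The log2 fold change was 2.17 ± 0.66 (SE, adjusted p = 0.029 by limma), or 1.58 above the median of all genes. Without CGN replicate 1, the library at about 0, it was 1.31 and was not called (adjusted p = 0.11 by limma). Equal total and median ratio scaling also ended the call, at adjusted p = 0.076 and 0.055.

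Pcdha7 had 657, 590.0 and 734 FPKM in the DRG libraries, against 314 and 322 FPKM in the CGN libraries. The spread within each group was small and the groups did not overlap, but the log2 fold change of 0.94 ± 0.51 was not called (SE, adjusted p = 0.18 by limma). Pcdha12 overlapped between the groups, with 456, 240.0 and 124 FPKM in the DRG libraries and 103 and 233 FPKM in the CGN libraries. The log2 fold changes of Pcdha4, Pcdha6 and Pcdha10 were 0.69, 1.12 and 0.58, none of them called.

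The alpha locus also held 10 assembled isoforms under the symbol CNR3, which the rule on symbols leaves out. RefSeq gives Cnr3 as an older name of Pcdha10. These isoforms were not added to Pcdha10 here, so its values above leave them out. Their sum was 5489, 7512 and 6239 FPKM in the DRG libraries, against 1939 and 2728 FPKM in the CGN libraries, more than all 8 alpha genes together in each library. The log2 fold change was 1.45 ± 0.33 (SE, adjusted p = 0.0088 by limma). CNR3 made up 64.1 to 72.6% of the alpha and CNR3 sum in DRG libraries and 66.6 to 68.3% in CGN libraries. With it included, the ratio of the alpha sums was 2.70, close to the 2.60 without it.

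In the beta cluster 1 gene, Pcdhb9, was higher in DRG neurons, against 28.4% of all genes, and 15 tested genes were not called. Of the 16 tested genes 12 had log2 fold changes below 0, against 4480 of all 13275 genes tested. Pcdhb9 (chr18:37560539-37563595, mm9) had 1004, 1073 and 1070 FPKM in the DRG libraries, against 271 and 457 FPKM in the CGN libraries. The 3 DRG libraries were nearly equal. The log2 fold change was 1.45 ± 0.49 (SE, adjusted p = 0.044 by limma), or 0.86 above the median of all genes. The call was lost without any 1 DRG library (adjusted p from 0.092 to 0.094 by limma), without CGN replicate 1 (0.097), and under equal total and median ratio scaling (0.16 and 0.062).

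Pcdhb17 was the most abundant beta gene in both CGN libraries. It had 948, 871 and 1242 FPKM in the DRG libraries, against 1160 and 1659 FPKM in the CGN libraries, and the groups overlapped (log2 fold change -0.44 ± 0.43, SE, adjusted p = 0.45 by limma). Pcdhb20 had 436, 458 and 628 FPKM in the DRG libraries, against 787 and 1100 FPKM in the CGN libraries. Its groups did not overlap, and the log2 fold change of -0.83 ± 0.50 was not called as deposited (SE, adjusted p = 0.22 by limma). Pcdhb17 and Pcdhb20 were called lower under all 3 scalings. Of the 16 tested beta genes 2 had every DRG library above both CGN libraries, against 43.5% of all tested genes, and 6 had every DRG library below them, against 16.8%.

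The gamma cluster (chr18:37821419-38001684, mm9, given as 1 locus) held the most abundant protocadherin of every library. The C-type gene Pcdhgc3 had 13277, 10399 and 9016 FPKM in the DRG libraries, against 8823 and 13246 FPKM in the CGN libraries. The groups overlapped, and the log2 fold change was -0.01 ± 0.35 (SE, adjusted p = 0.99 by limma). Its sign changed when single libraries were left out, and under the 3 scalings it was called lower, with log2 fold changes down to -1.09.

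The other gamma genes are of the A and B types, and here the first genes of the cluster were higher in DRG neurons while several of the last had lower values there. Pcdhga1 had 787, 884 and 940.1 FPKM in the DRG libraries, against 244 and 332 FPKM in the CGN libraries (log2 fold change 1.46 ± 0.50, SE, adjusted p = 0.047 by limma, or 0.86 above the median of all genes). Pcdhga2 had 1208, 1238 and 1800 FPKM in the DRG libraries, against 341 and 627 FPKM in the CGN libraries (log2 fold change 1.49 ± 0.48, SE, adjusted p = 0.037 by limma, or 0.90 above that median). In both genes every DRG library was above both CGN libraries. Both calls were lost without any 1 DRG library (adjusted p from 0.057 to 0.11 over both genes by limma), without CGN replicate 1 (0.10 and 0.14), and under equal total and median ratio scaling (0.079 to 0.20). Both CGN values of Pcdhga1 had a lower confidence bound of 0, and with such values set to 0 its log2 fold change was 4.20 (adjusted p = 0.0023 by limma).

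Pcdhgb6 had 442, 596 and 713 FPKM in the DRG libraries, against 767 and 1650 FPKM in the CGN libraries. Pcdhga11 had 1053, 974 and 905 FPKM in the DRG libraries, against 1245 and 2347 FPKM in the CGN libraries. Pcdhgb7 had 264, 388 and 420.3 FPKM in the DRG libraries, against 649 and 1068 FPKM in the CGN libraries. In these 3 genes every DRG library was below both CGN libraries. Their log2 fold changes of -0.92, -0.78 and -1.14 were not called as deposited (adjusted p of 0.20, 0.19 and 0.13 by limma) and were called lower under all 3 scalings. In the middle of the cluster Pcdhga7 had 1625, 1428 and 1796 FPKM in the DRG libraries, against 957 and 1789 FPKM in the CGN libraries, and Pcdhgb2 had 878, 709 and 991 FPKM in the DRG libraries, against 689 and 1159 FPKM in the CGN libraries. Both overlapped between the groups. Pcdhga5 and Pcdhga6, which lie between them, also overlapped, with log2 fold changes of 0.37 and -0.86. Neither was called as deposited (adjusted p of 0.70 and 0.27 by limma), and Pcdhga6 was called lower under all 3 scalings.

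The order of the genes along each cluster was taken from RefSeq, and this comparison was chosen after the values were seen. Over the 10 gamma A and B genes the log2 fold change was lower towards the end of the cluster, with a Spearman correlation of -0.77, and with Pcdhgc3 included it was -0.61 over 11 genes. The correlation over the 10 genes ranged from -0.71 to -0.83 when each library was left out in turn. Over the 16 tested beta genes the correlation was -0.34 (-0.34 to -0.25 when each library was left out), and over the 7 tested alpha genes it was -0.04 (-0.11 to 0.61, the highest without DRG replicate 3). These values describe genes that share libraries and, in the alpha and gamma clusters, exons, so the points are not independent.

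**Figure D3:**
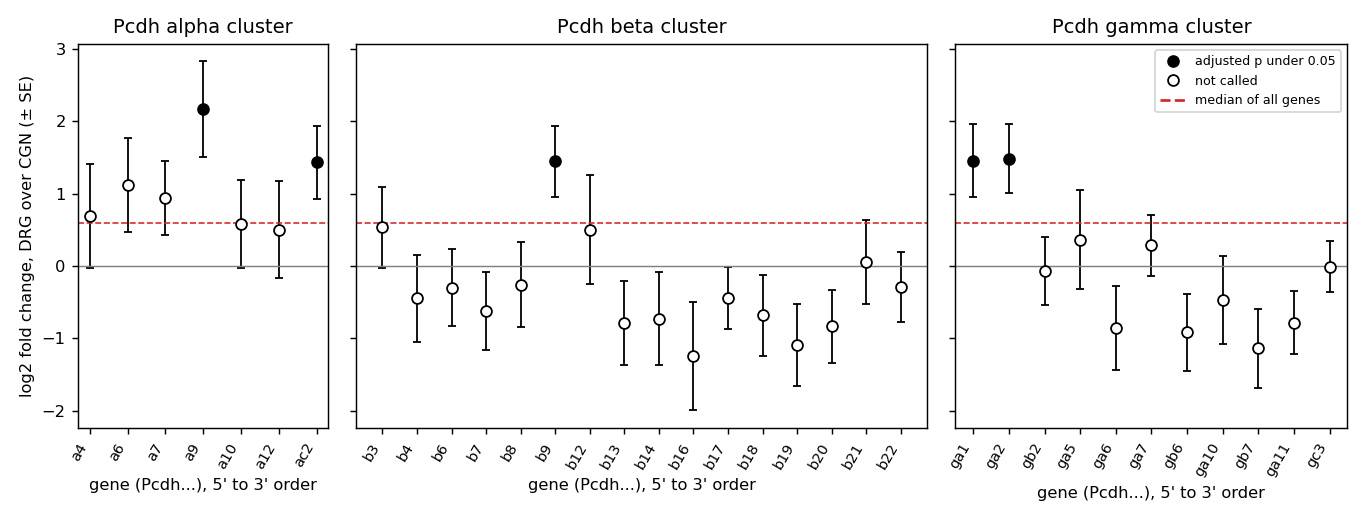
Log2 fold change of DRG over CGN with its standard error (vertical axis) for each tested clustered gene, in order from the first to the last gene of the alpha, beta and gamma clusters (horizontal axis). Filled points are called, and the dashed line is the median of all genes (0.59). The first 2 gamma genes lie at 1.46 and 1.49, and the last 4 listed A and B genes lie below 0.

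The share of each gene within a library does not change when a library is multiplied by a constant, as in equal total and median ratio scaling. Pcdhga1 and Pcdhga2 together made up 26.1, 30.0 and 31.3% of the gamma A and B sum in the DRG libraries, against 10.2 and 8.57% in the CGN libraries. The last 4 A and B genes listed, Pcdhgb6, Pcdhga10, Pcdhgb7 and Pcdhga11, made up 24.9, 31.1 and 25.5% in the DRG libraries, against 49.5 and 49.0% in the CGN libraries. Neither pair of groups overlapped. Pcdhb9 made up 21.1, 21.6 and 17.2% of the beta sum in the DRG libraries, against 5.16 and 6.08% in the CGN libraries.

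The families also took different shares of the clustered sum. The alpha genes made up 8.98, 11.2 and 12.7% of it in the DRG libraries, against 4.34 and 4.11% in the CGN libraries. The beta genes made up 16.8, 19.6 and 22.6% in the DRG libraries, against 25.3 and 22.6% in the CGN libraries, so DRG replicate 3 and CGN replicate 2 were alike. The share of Pcdhgc3 in the gamma sum overlapped, with 63.5, 59.5 and 50.8% in the DRG libraries and 60.5 and 54.2% in the CGN libraries. These genes and shares were chosen after their values were seen, so no test is given for them.

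**Figure D4:**
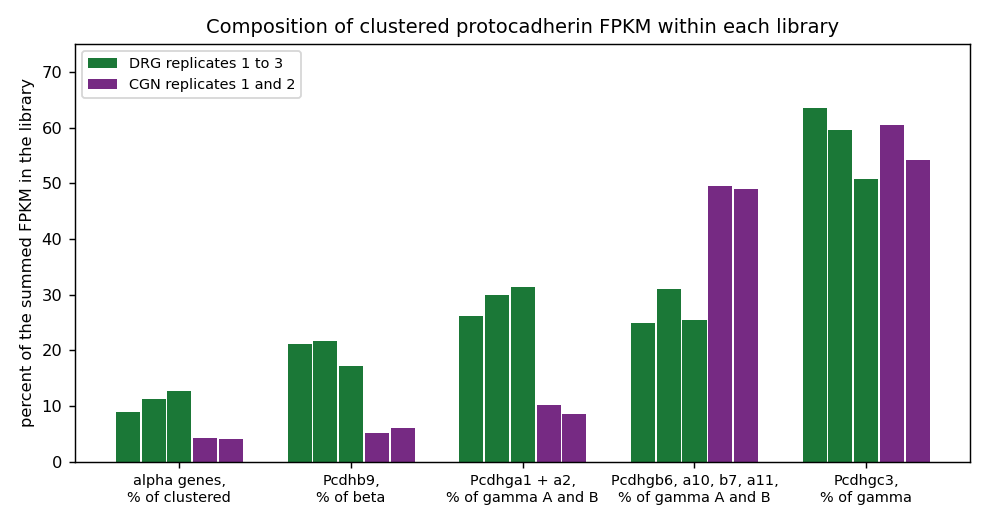
Percent of the summed FPKM (vertical axis, from 0) that named clustered genes made up within each library, with a bar for each DRG replicate (left) and each CGN replicate (right). Pcdhga1 and Pcdhga2 range from 26.1 to 31.3% in DRG libraries and from 8.57 to 10.2% in CGN libraries, and the bars of Pcdhgc3 overlap.

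The levels of the 36 clustered genes were also compared between pairs of libraries. Pearson's r of log2(FPKM + 50) ranged from 0.849 to 0.965 between libraries of the same cell type and from 0.730 to 0.873 between libraries of different cell types, so the ranges overlapped. Spearman's correlation ranged from 0.860 to 0.955 within a cell type and from 0.680 to 0.812 between them. Over the 17 beta genes the ranges of Spearman's correlation overlapped almost wholly, at 0.618 to 0.924 within a cell type and 0.510 to 0.914 between them. Within the gamma cluster Spearman's correlation ranged from 0.909 to 0.955 within a cell type and from 0.409 to 0.709 between them. These are correlations across genes, which are not independent replicates, and the values of a library share its scaling.

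Genes that act with protocadherins were followed as lists. A list of 20 regulators of the clustered promoters held, among others, the insulator protein CTCF, cohesin and DNA methyltransferases. Of the 20, 0 were higher in DRG neurons (1 at an unadjusted p under 0.05 by limma), against 28.4% of all genes. Lower in DRG neurons were 5, against 9.22% of all genes, and the median log2 fold change was -0.51, against 0.59 over all genes tested. Under the 3 scalings 0 were higher, against 17.3 to 22.5% of all genes, and 13 to 15 were lower, against 21.0 to 26.2%. Dnmt3b, a de novo DNA methyltransferase that in mouse methylates clustered protocadherin promoters in the embryo, had 0, 18.8 and 32.9 FPKM in the DRG libraries, against 215 and 567 FPKM in the CGN libraries (log2 fold change -2.62 ± 0.61, SE, adjusted p = 0.0094 by limma). Ehmt1, a histone H3 lysine methyltransferase, had 523, 195 and 68.6 FPKM in the DRG libraries and 1155 and 1047 FPKM in the CGN libraries. Dnmt3a had 209, 312 and 160 FPKM in the DRG libraries and 849 and 791 FPKM in the CGN libraries. Both were called, at adjusted p = 0.038 and 0.0399 by limma, and both calls were lost without DRG replicate 3 (0.063 and 0.089), CGN replicate 1 (0.27 and 0.13) or CGN replicate 2 (0.21 and 0.090), that of Dnmt3a also without DRG replicate 1 (0.071). With values whose lower confidence bound was 0 set to 0, the log2 fold change of Dnmt3a was -0.60 (adjusted p = 0.58 by limma).

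Of 16 tested intracellular partners of clustered protocadherins 4 were higher and 1 was lower, against 28.4% and 9.22% of all genes (the median log2 fold change was 0.43). Ret, the receptor tyrosine kinase for the GDNF family that clustered protocadherins associate with, had 24114, 19284 and 38337 FPKM in the DRG libraries, against 531 and 1112 FPKM in the CGN libraries (log2 fold change 4.99 ± 0.42, SE, adjusted p = 5.5e-05 by limma). Ptk2b, the focal adhesion kinase PYK2 that alpha and gamma proteins bind and inhibit, had 1499, 845 and 1468 FPKM in the DRG libraries, against 66.8 and 84.8 FPKM in the CGN libraries (log2 fold change 3.35 ± 0.55, SE, adjusted p = 0.0017 by limma). The adaptor Ywhab was higher as well (log2 fold change 1.66), a call that was lost without CGN replicate 1 (adjusted p = 0.0501 by limma). Robo1, an axon guidance receptor, was the gene called lower as deposited. It had 0.33 to 1.22 FPKM in the DRG libraries, against 731 and 702 FPKM in the CGN libraries. Under the 3 scalings 5 or 6 of the partners were lower, against 21.0 to 26.2% of all genes. Those called higher were 3 or 4, against 17.3 to 22.5%.

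Of 6 tested proteases that cut protocadherins 2 were higher, against 28.4% of all genes: the gamma-secretase subunits Psen2 (log2 fold change 2.18) and Psenen (2.68), and none was lower under any scaling (0 at an unadjusted p under 0.05 by limma). Without CGN replicate 1 the call of Psenen was lost (adjusted p = 0.062 by limma). Of 8 tested members of the WAVE complex Abi1, Cyfip2 and Nckap1 were higher as deposited (log2 fold changes of 1.73, 1.49 and 1.15), 3 of 8 against 28.4% of all genes. Under each of the 3 scalings 3 members were lower, against 21.0 to 26.2% of all genes, and 1 to 3 were higher, against 17.3 to 22.5%. Abi1 was called under every alternative, and the call of Nckap1 was lost without any 1 DRG library (adjusted p from 0.085 to 0.11 by limma) or without CGN replicate 1 (0.057). Quantile normalization also ended the calls of Cyfip2 (log2 fold change 0.38, adjusted p = 0.11 by limma) and Nckap1 (0.13, adjusted p = 0.51), and equal total FPKM that of Nckap1 (0.20, adjusted p = 0.31). Of 6 tested partners of delta-protocadherins Ryk and Dab1 were lower, 2 of 6 against 9.22% of all genes, and 0 were higher, against 28.4%. Under the 3 scalings 3 or 4 of them were lower, against 21.0 to 26.2% of all genes. Dab1, to which Pcdh18 binds, had 34.4, 45.7 and 61.1 FPKM in the DRG libraries, against 337 and 346 FPKM in the CGN libraries (log2 fold change -2.02 ± 0.55, SE, adjusted p = 0.019 by limma). Of 2 tested partners of Pcdh15 none was called (0 higher and 1 lower at an unadjusted p under 0.05 by limma), and the tip-link cadherin Cdh23 was listed at 0 in all 5 libraries.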

How the data were processed

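Polyadenylated RNA of 3 DRG and 2 CGN cultures was sequenced. The deposited values are FPKM of isoforms, which the authors estimated for each library alone with TopHat alignment to mm9, Cufflinks assembly and Cuffdiff with upper-quartile normalization, with lower and upper confidence bounds. Columns of pooled libraries and of the authors' own fold changes and p-values were not used. Isoform FPKM were summed per symbol, and genes and isoforms with at least 50 FPKM in at least 2 libraries were compared by limma 3.58.1 (empirical Bayes with trend, two-sided) in R 4.3.3 on log2(FPKM + 50), with no covariate and with Benjamini-Hochberg adjustment over all features tested. A fold change on this scale understates the change of low genes. The limma steps were tested on simulated data in which 200 features changed. For simulated log2 changes of 1, 2 and 4, the fit called 2 of 67, 31 of 67 and 61 of 66 genes. It called 0 of 67, 0 of 67 and 27 of 66 isoforms, with 9 false calls for genes and 3 for isoforms. A gene or isoform that was not called can therefore still differ. Recovery in the real data, where far more features changed, may not be the same. Other steps used pandas 2.3.3, scipy 1.17.1, numpy 2.4.6 and matplotlib 3.10.9 under Python 3.11.15.

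All protocadherins outside the clusters were named, with the C-type genes, in each cluster type up to 4 called genes in each direction and the 2 most abundant in each cell type, called isoforms of genes with at least 2 tested isoforms, and up to 3 called genes of each list in each direction. The members and lists were chosen with earlier results of these data known. Pcdhb6, Pcdhb8 and Pcdhb19 each had 2 lines with 1 reference identifier, which were summed. Lengths of shared exons and windows came from GENCODE M1, and RefSeq (GRCm38.p6) gave only gene names and order. Alternatives were pseudocounts of 1 and 10, no filter, a limit of 100 FPKM, 3 scalings, no trend, a replicate block, each library left out (genes tested with all libraries were kept, and a lone CGN library was assumed to vary like the DRG group), reference transcripts only, and FPKM set to 0 where the lower bound was 0. A marker gene of the glial list is not reported here.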

Additional observations from a re-analysis of the deposited data

How the results depend on the processing

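Over 39 named genes and isoforms, 479 of 611 alternative values kept the direction and the side of the threshold, 97 lost the call, 19 gained one and 16 changed sign, none of them for a gene called as deposited. The causes were not tested unless named. The protocadherins called higher were 7 as deposited, 4 with a pseudocount of 1, 2 with equal total FPKM or median ratio scaling, 3 with reference transcripts only, 4 with FPKM set to 0 at a lower bound of 0, and 2 to 6 when each library was left out. Those called lower were 1 as deposited, 0 with a pseudocount of 1, 13 with equal total FPKM, 11 with quantile normalization or median ratio scaling, and 0 to 1 when each library was left out. Over all genes 3775 were higher, 2287 with equal total FPKM and 1580 to 3850 when each library was left out, and 1224 were lower, 2809 with quantile normalization, 3502 with equal total FPKM, 2807 with median ratio scaling, 668 with reference transcripts only and 734 to 1241 when each library was left out. Over isoforms 3233 were higher, 2069 with no filter and 575 to 2821 when each library was left out, and 1693 were lower, 3228 with quantile normalization, 4217 with equal total FPKM, 3585 with median ratio scaling and 257 to 1613 when each library was left out. The log2 ratios of the sums, in the order quantile normalization, equal total FPKM and median ratio scaling, were 0.93, 0.47 and 0.72 for alpha (1.38 as deposited, 1.11 to 1.71 when each library was left out), -0.78, -1.19 and -0.94 for beta (-0.27, -0.50 to 0.014), -0.90, -0.97 and -0.72 for gamma (-0.06, -0.38 to 0.36), and 1.08, 0.73 and 0.99 outside the clusters (1.67, 1.44 to 1.93), where reference transcripts alone gave 0.88. Signs changed with equal total FPKM for Pcdh19 (-0.21), Pcdh7 (-0.084), Pcdha12 (-0.24) and Pcdhga7 (-0.64), with median ratio scaling for Pcdh19 (-0.013), Pcdha12 (-0.037) and Pcdhga7 (-0.39), with quantile normalization for Pcdhga7 (-0.30), and when each library was left out for Pcdh18 (-0.41 to 0.075), Pcdhga7 (-0.15 to 0.72), Pcdhgb2 (-0.42 to 0.29) and Pcdhgc3 (-0.30 to 0.28). In alternatives chosen after seeing the data, the log2 ratio was 1.43 for alpha with CNR3 and -0.026 outside the clusters without Pcdh1 and Pcdh21.

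The replicate numbers 1 and 2 are shared by the groups, and the study states no pairing of the samples. Deviations from the group means correlated at -0.02 (replicate 1) and 0.01 (replicate 2). With 2 CGN libraries the deviations of 1 mirror those of the other, so these correlations cannot show or exclude a pairing. With the replicate block, 2444 genes and 3 protocadherins were higher, 1 protocadherin was lower, and Pcdhgc3 was at 0.12. Precision is limited by the 2 CGN libraries and by the unknown depth behind each FPKM.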
